A study of Rattus norvegicus with 6 samples.

Results

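The platelet-derived growth factor (PDGF) genes of rat dorsal root ganglion cells were examined for their response to high glucose. They were taken by symbol from the deposited mRNA table, and all 7 genes sought were present: the receptors Pdgfra and Pdgfrb, the receptor-like gene Pdgfrl, and the ligands Pdgfa, Pdgfb, Pdgfc and Pdgfd. They are 7 of the 16551 genes of that table, each on a single Ensembl identifier. Genes that act around the receptors, and the related vascular endothelial growth factor (VEGF) genes, are described after them.

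RNA was sequenced from primary cells of ganglia taken between the lower lumbar and sacral vertebrae of rats, in 3 samples cultured over 48 h with 45 mmol/L glucose (high glucose, titled DM) and 3 samples of a normal culture group (control). The labels name no strain, age or genetic change, state no glucose level for the control cultures and list no osmolarity control. They also do not say whether replicates came from separate cultures or animals, so p-values measure the spread among the sequenced samples only, and that spread may be technical. The mRNA table held 28780612 to 33108451 reads per high-glucose sample and 28949744 to 32181594 per control sample, and a PDGF gene had between 162 and 29080 reads in a sample. The labels call the cells nerve cells, but markers of neurons were scarce: 12 pan-neuronal markers summed to 76.5 to 78.9 CPM (reads scaled to library size) in high glucose and 115.9 to 119.7 CPM in control, while 11 fibroblast markers summed to 50830 to 53430 CPM in high glucose and 54340 to 56530 CPM in control. The collagens Col1a1 and Col3a1 made up 97.1% to 98.7% of the fibroblast sum, and the other 9 markers summed to 1467 to 1495 CPM in high glucose and 734.6 to 768.6 CPM in control. Of the neuronal sum, Uchl1 alone gave 47.7 to 48.6 CPM in high glucose and 56.7 to 60.6 CPM in control.

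PDGFs are paired growth factors for cells of mesenchymal origin, such as fibroblasts, pericytes and smooth muscle, and they act through a pair of receptor tyrosine kinases. PDGF-A and PDGF-C act mainly on the alpha receptor, PDGF-B acts on both receptors, and PDGF-D acts mainly on the beta receptor. PDGF-A and PDGF-B are processed inside the cell, whereas PDGF-C and PDGF-D are secreted as latent factors from which proteases must remove a CUB domain. In peripheral nerve the alpha receptor marks fibroblasts of the connective tissue and the beta receptor marks pericytes and other mural cells, and Schwann cells are known to make PDGF.

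High glucose was accompanied by opposite changes within this small family. Pdgfra rose 1.84-fold while Pdgfrb did not pass the test, and among the ligands Pdgfc rose 1.61-fold while Pdgfa, Pdgfb and Pdgfd were 1.51-fold, 2.53-fold and 2.16-fold lower. Pdgfrl rose 1.49-fold. In all, 3 genes rose, 3 fell and 1 did not pass, with limma and a threshold of 0.05 on the adjusted p. Such calls were common in these libraries: 50.5% of all genes passed, 24.9% higher and 25.5% lower. The groups did not overlap for 6 of the 7 genes, against 57.6% of all genes (28.7% higher, 28.9% lower). Changes of this size were less common. A change of at least 1.5-fold in either direction was seen in 5 of the 7 PDGF genes and in 26.4% of all genes, and the median absolute log2 fold change was 0.68 for the PDGF genes and 0.28 for all genes. The 1.5-fold cut fell between Pdgfa (1.505-fold lower) and Pdgfrl (1.493-fold higher). The members were also chosen with earlier results of these data known, which limits this contrast with all genes. All log2 fold changes are high glucose minus control, from limma on the deposited log2 CPM values, with their standard error (SE) and 3 samples per group.

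**Figure D1:**
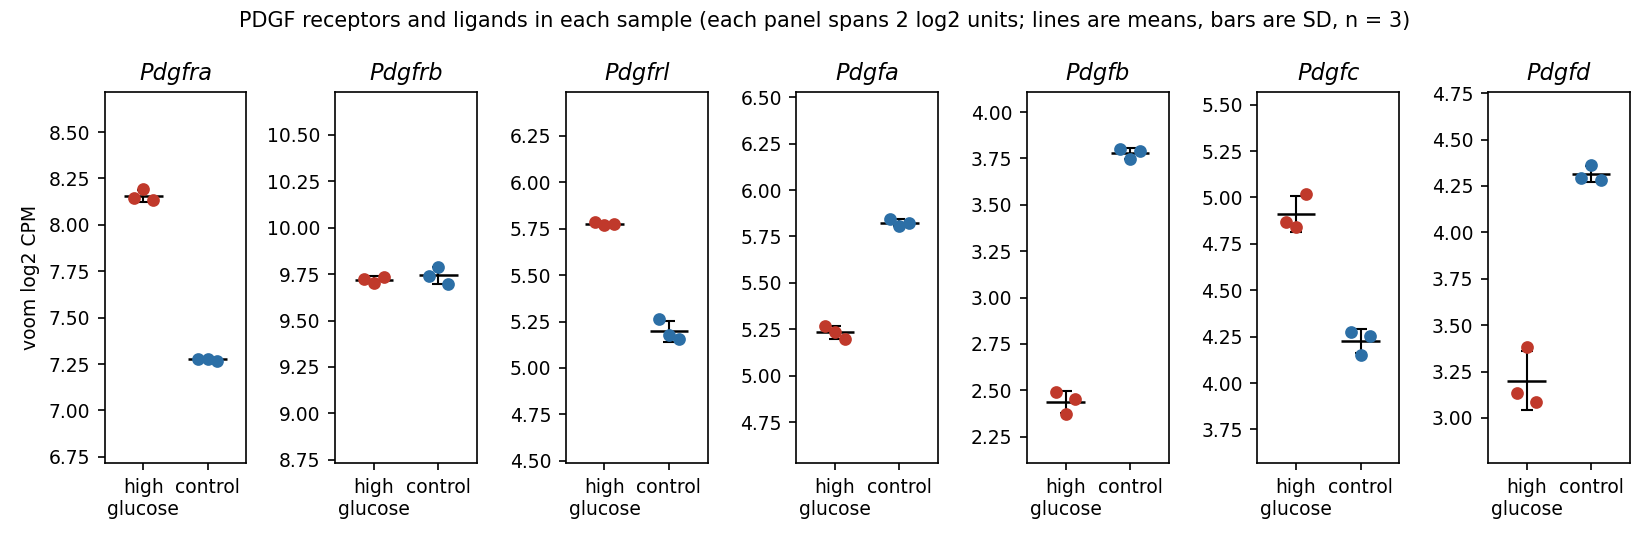
Voom log2 CPM (vertical axes, each spanning the same range) of the 7 PDGF genes in the 3 high-glucose samples (red) and the 3 control samples (blue), with group means and SD. The groups stand apart in every panel except that of Pdgfrb, where they overlap.

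**Figure D2:**
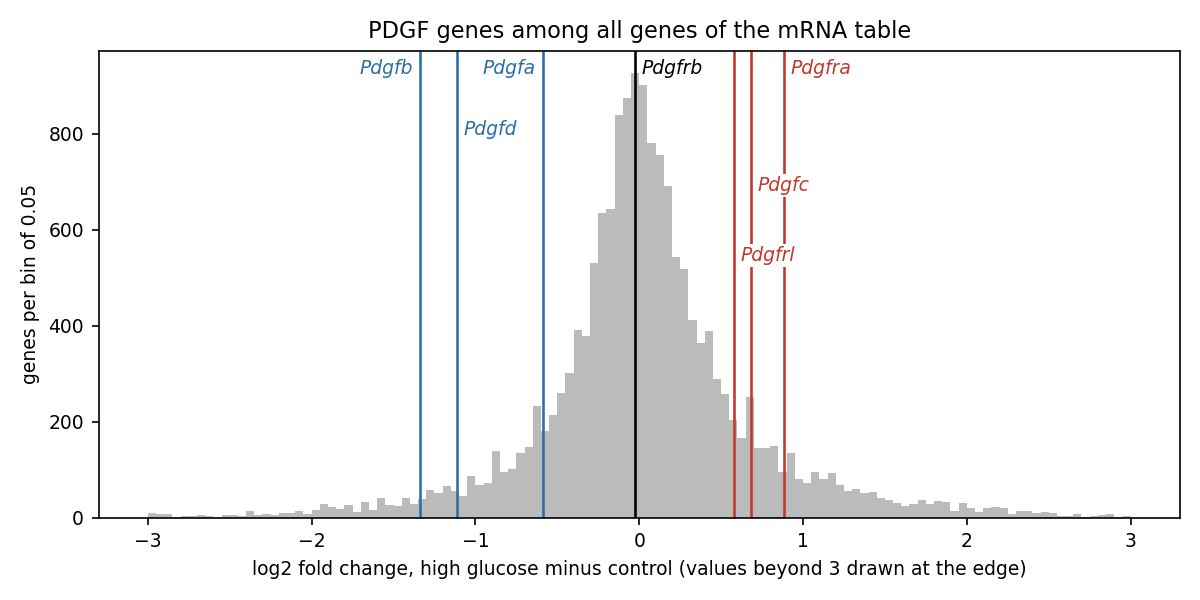
Histogram of the log2 fold change of all 16551 genes (horizontal axis, high glucose minus control; vertical axis, genes per bin), with a line for each PDGF gene. Pdgfb and Pdgfd lie in the lower tail, Pdgfra, Pdgfc and Pdgfrl on the upper side, and Pdgfrb near 0.

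The promoter windows of the receptor that rose most and of both ligands that fell most are shown to give the sequence around the start of these genes. They are 300 bases of RefSeq sequence on the rat build GRCr8, from 250 bases before to 50 bases after the gene start, printed 5′ to 3′ on the strand of the gene, with matches to the GC box motif GGGCGG on either strand in capitals. Pdgfra lies on the minus strand (chr14:33408467-33408766), Pdgfb on the minus strand (chr7:113438294-113438593) and Pdgfd on the plus strand (chr8:11773258-11773557).
Pdgfra: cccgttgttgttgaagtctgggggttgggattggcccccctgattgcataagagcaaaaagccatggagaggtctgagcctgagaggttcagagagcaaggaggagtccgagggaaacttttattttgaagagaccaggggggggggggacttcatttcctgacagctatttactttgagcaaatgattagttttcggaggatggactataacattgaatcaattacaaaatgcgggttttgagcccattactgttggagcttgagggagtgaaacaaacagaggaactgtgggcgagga
Pdgfb: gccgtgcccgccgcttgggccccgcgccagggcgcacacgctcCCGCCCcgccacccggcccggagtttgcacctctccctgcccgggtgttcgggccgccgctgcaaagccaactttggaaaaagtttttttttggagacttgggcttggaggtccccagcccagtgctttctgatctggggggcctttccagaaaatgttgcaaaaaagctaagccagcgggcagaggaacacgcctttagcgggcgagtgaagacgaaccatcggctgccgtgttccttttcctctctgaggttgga
Pdgfd: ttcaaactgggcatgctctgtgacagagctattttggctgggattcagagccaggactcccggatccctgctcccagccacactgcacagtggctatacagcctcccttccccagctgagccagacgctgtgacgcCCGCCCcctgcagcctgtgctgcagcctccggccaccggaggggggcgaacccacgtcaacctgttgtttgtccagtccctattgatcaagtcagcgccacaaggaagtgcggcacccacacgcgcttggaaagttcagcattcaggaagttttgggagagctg

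The table of promoters matched 5 of the 7 genes, Pdgfra, Pdgfa, Pdgfb, Pdgfc and Pdgfd. The Pdgfra window held 48.0% G and C and 5 CpG sites, against 62.0% and 22 sites for Pdgfb, 60.0% and 12 sites for Pdgfd, 60.0% and 17 sites for Pdgfa, and 58.0% and 14 sites for Pdgfc. The median over 33469 rat promoters of the same length was 51.7%. Of 6 short motifs searched on both strands, GGGCGG (GC box) occurred in the windows of all 3 ligands that fell, Pdgfa, Pdgfb and Pdgfd. It was in neither window of Pdgfra and Pdgfc, which rose. Pdgfrl also rose but had no window. The motif occurred in 33.1% of all promoters, and promoters of like G and C content were not compared. It began 207 bases before the gene start in Pdgfb, 114 in Pdgfd and 187 in Pdgfa. TTTCCA, the core letters of NFAT-type sites, occurred in 4 of the 5 windows and in 22.7% of all promoters, with Pdgfra the window without it. TGANTCA, a loose form of the AP-1 motif with any base in the middle, occurred only in the Pdgfra window and in 7.33% of all promoters. The Pdgfra match, 35 bases before the start, reads TGAATCA. Its middle base is A, where the AP-1 consensus has G or C. CCACCC occurred only in that of Pdgfb, against 29.4% of all promoters. TATAAA and CATTCC (TEAD) occurred in none of the 5 windows, and each in 14.2% of all promoters. No match overlapped a match to another of these motifs. A match is a run of letters and not a measured site.

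Pdgfra (ENSRNOG00000002244), the alpha receptor, had 8.14, 8.19 and 8.13 log2 CPM in the high-glucose samples and 7.28, 7.28 and 7.27 log2 CPM in the control samples. Every high-glucose value was above every control value. The control samples had an SD of 0.00625, the smallest of any PDGF gene in either group. Pdgfra rose by 0.88 ± 0.02 on the log2 scale (SE; limma adjusted p = 2.64e-12), and 1488 of the 16551 genes had a higher one. The gene was well read, with 27226 reads over the high-glucose samples and 13666 over the control samples.

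Pdgfrb (ENSRNOG00000018461), the beta receptor, had 9.72, 9.70 and 9.74 log2 CPM in high glucose and 9.74, 9.79 and 9.70 log2 CPM in control. The values of the groups were interleaved. Its log2 fold change was -0.02 ± 0.02 (SE; limma adjusted p = 0.411), with a 95% interval of the fold from 0.951 to 1.02, on 80504 reads over the high-glucose samples and 75716 over the control samples. The direction of this value depended on the scaling. It was 0.19 after quantile normalization (adjusted p = 8.07e-06) and 0.090 with plain read totals (adjusted p = 0.00239), both on the higher side and past the threshold, so the interval holds only for the authors' scaling. The gene stood at the 99.3rd percentile of mean levels on a scale that does not correct for gene length.

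Pdgfrl (ENSRNOG00000010832) encodes a secreted protein that resembles the ligand-binding part of the receptors and has no kinase. It had 5.78, 5.77 and 5.77 log2 CPM in high glucose and 5.26, 5.18 and 5.16 log2 CPM in control. The groups were apart, with all high-glucose samples higher. The rise came to 0.58 ± 0.04 on the log2 scale (SE; limma adjusted p = 2.99e-08).

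Among the ligands, Pdgfb (ENSRNOG00000017197), whose product activates both receptors and recruits pericytes to vessels, changed most. It had 2.49, 2.37 and 2.45 log2 CPM in high glucose and 3.80, 3.75 and 3.79 log2 CPM in control. All 3 high-glucose samples were below all control samples. The log2 fold change was -1.34 ± 0.08 (SE; limma adjusted p = 7.42e-09), and 480 of all genes had a lower one. It was the member with the fewest reads, 516 in high glucose and 1208 in control.

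Pdgfd (ENSRNOG00000029148), the latent ligand of the beta receptor, had 3.13, 3.38 and 3.09 log2 CPM in high glucose and 4.29, 4.36 and 4.28 log2 CPM in control. The groups were again apart, although sample 2 of high glucose was higher than samples 1 and 3 and the SD there, 0.159, was the widest of any member in either group. The log2 fold change was -1.11 ± 0.08 (SE; limma adjusted p = 6.17e-08), with 733 of all genes lower.

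Pdgfa (ENSRNOG00000001312), the ligand of the alpha receptor that drives the growth of fibroblast and glial precursors, had 5.27, 5.24 and 5.20 log2 CPM in high glucose and 5.84, 5.81 and 5.82 log2 CPM in control. All high-glucose samples were lower. Its log2 fold change was -0.59 ± 0.04 (SE; limma adjusted p = 1.15e-08), with a 95% interval of the log2 fold change from -0.67 to -0.51.

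Pdgfc (ENSRNOG00000010695), the latent ligand of the alpha receptor, was the one ligand that rose. It had 4.87, 4.84 and 5.02 log2 CPM in high glucose and 4.28, 4.15 and 4.25 log2 CPM in control. The groups did not overlap. Pdgfc rose by 0.68 ± 0.06 on the log2 scale (SE; limma adjusted p = 4.04e-07), on 2880 reads in high glucose and 1649 in control. The genes with the GC box motif in the windows above, Pdgfa, Pdgfb and Pdgfd, were thus the 3 that fell. With 5 windows this is a description, and the window of Pdgfc sits on a coding start and need not hold its promoter. The other windows were not checked against transcript starts, so they need not hold promoters either.

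Differences between PDGF genes inside a sample do not change when every gene of a sample is scaled by 1 factor, so 4 of them were compared. They are differences of log2 CPM, without correction for gene length, so that only their change between groups can be read. Pdgfra minus Pdgfrb averaged -1.56 ± 0.049 in high glucose and -2.47 ± 0.041 in control (SD, n = 3 each), a shift of 0.91 or 1.87-fold toward the alpha receptor. Quantile normalization, which moves genes of different levels unequally and was added here after the data were seen, gave a shift of 0.74 for this pair. Pdgfa minus Pdgfc, both ligands of that receptor, averaged 0.32 ± 0.13 in high glucose and 1.60 ± 0.051 in control (SD, n = 3 each), a shift of -1.27 or 2.42-fold toward Pdgfc. Between the latent ligands, Pdgfc minus Pdgfd averaged 1.71 ± 0.24 in high glucose and -0.09 ± 0.11 in control (SD, n = 3 each), the widest shift of the 4 at 1.80 or 3.47-fold. Pdgfa minus Pdgfb averaged 2.80 ± 0.06 in high glucose and 2.05 ± 0.014 in control (SD, n = 3 each), a shift of 0.75 or 1.68-fold, so Pdgfb was reduced further than Pdgfa. The samples of the groups did not overlap in any of the 4. The exact two-sided permutation test gave p = 0.1 for each, and 0.1 after adjustment over the 4, which is the smallest p that 3 against 3 samples allow.

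**Figure D3:**
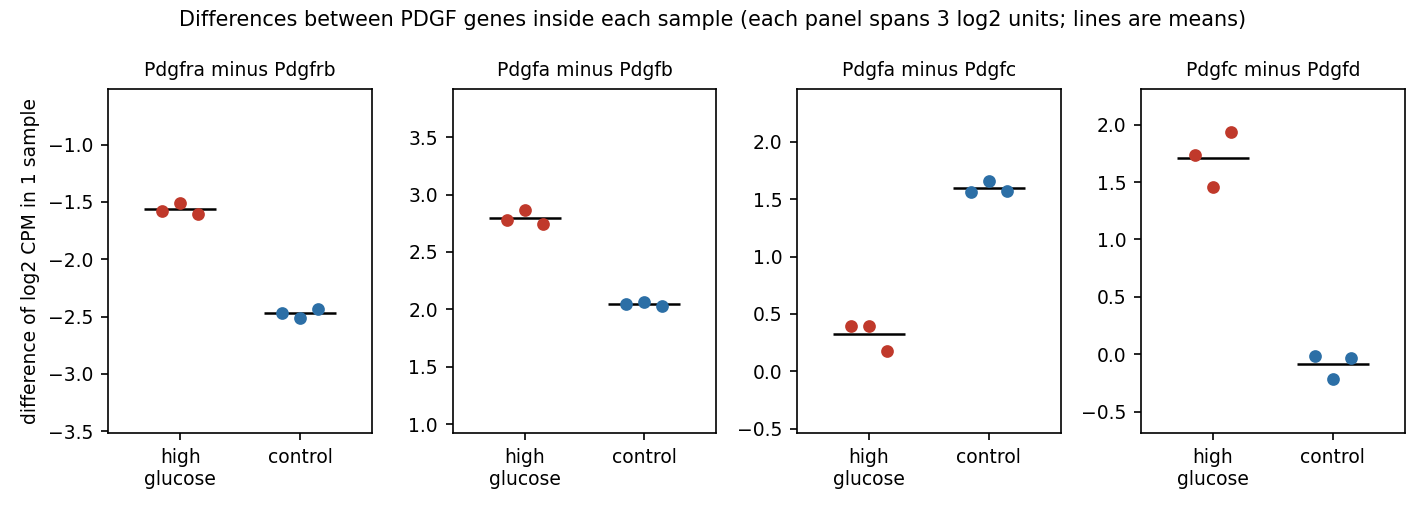
Differences of log2 CPM between pairs of PDGF genes in each sample (vertical axes, each spanning the same range), high glucose in red and control in blue, with lines at group means. All 3 high-glucose samples lie on one side of all 3 control samples in each panel, and the shift is widest for Pdgfc minus Pdgfd.

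**Figure D4:**
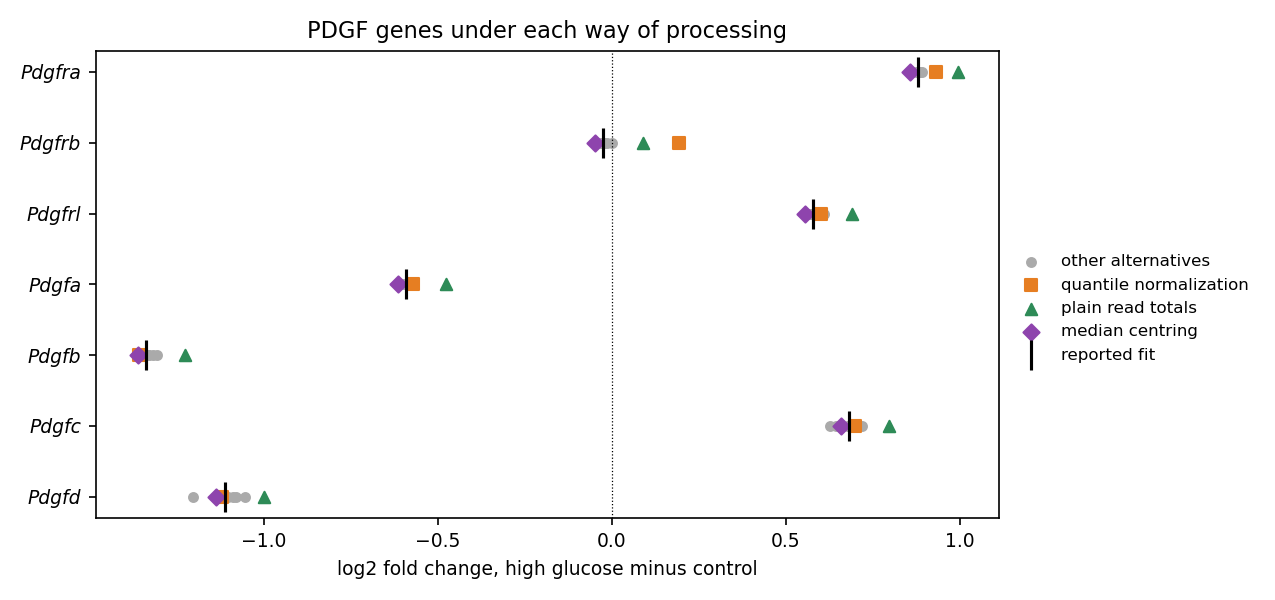
Log2 fold change (horizontal axis, high glucose minus control) of each PDGF gene in the reported fit (black bar), under 3 other scalings (coloured marks) and under the other alternatives (grey), which leave out 1 sample at a time or change the offset, filter, weights, variance prior or block. All marks of the 6 genes that passed stay on their side of 0, while those of Pdgfrb lie on both sides.

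For each PDGF gene the 2 genes with the most similar profile were looked up among 11512 other named genes, by the Euclidean distance between log2 values over the 6 samples after each gene was centred on its mean. With 2 groups this finds genes with a change of like size, and many genes lie close by. Pdgfb was closest to Cspg4, the pericyte proteoglycan NG2 (distance 0.0796), whose log2 fold change was -1.33, and to Sh3bp4 (-1.36). Pdgfd was closest to Gpm6b, a membrane glycoprotein of neural cells (distance 0.134, -1.14), and St3gal1, a sialyltransferase (-1.02). Pdgfa was closest to Serpinf1, the secreted factor PEDF (distance 0.0392, -0.59), and Myo10, a filopodial myosin (-0.60). Pdgfra was closest to Cttnbp2 (distance 0.0448, 0.88) and C1r, a protease of the complement cascade (0.87). Pdgfrl was closest to Ror1, a receptor of the Wnt5a pathway (distance 0.0232, 0.58), and Gulp1, an adaptor of engulfment (0.57). Pdgfc was closest to Id2, an inhibitor of helix-loop-helix factors (distance 0.103, 0.70), and Net1, an activator of RhoA (0.74). Pdgfrb was closest to Specc1 (distance 0.0162, -0.03) and Kif16b, a kinesin (-0.02).

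Proteases that process PDGFs and proteins that bind them were mixed. Of 12 measured, 4 rose, 6 fell and 2 did not pass, with a median log2 fold change of -0.10, against 0.01 for all genes and the 24.9% of all genes that were higher and 25.5% lower. The balance of the list depended on the scaling, with 6 higher and 4 lower after quantile normalization and 4 each way with plain read totals. The largest fall was that of Cspg4, which binds PDGF-A, at 8.08 log2 CPM in high glucose and 9.41 log2 CPM in control (-1.33 ± 0.02, limma adjusted p = 3.72e-14). Thbs1, a matrix protein that binds PDGF, was 1.97-fold lower (-0.98, and -0.53 after quantile normalization), and Pcsk5, a convertase of the furin family, was 1.91-fold lower. Nrp1, a co-receptor, rose 1.67-fold. Plat, tissue plasminogen activator, which frees PDGF-C of its CUB domain, rose 1.31-fold (0.39 ± 0.04), in the same direction as Pdgfc. Furin, which cleaves the precursors of PDGF-A and PDGF-B, rose 1.10-fold (0.14, and 0.26 with plain read totals). Plau, the urokinase that can activate PDGF-D and that was singled out after its values were seen, was scarce, with 122 high-glucose and 158 control reads, and did not pass (-0.44 ± 0.25, limma adjusted p = 0.162). Without control 3 it was -0.67 and passed (adjusted p = 0.0361), and without control 1 it was -0.18. St14, the protease matriptase that can also activate PDGF-D and was likewise singled out afterwards, rose 1.53-fold (0.62 ± 0.20, limma adjusted p = 0.0204) on 165 high-glucose and 99 control reads, and did not pass without control 2, high glucose 2 or high glucose 3 (adjusted p = 0.0674, 0.0671 and 0.0519).

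Adaptors and effectors that bind the phosphorylated receptors changed in 18 of 24 cases, 6 higher and 12 lower, with a median log2 fold change of -0.08. That is 75.0% of the list, against 50.5% of all genes (24.9% higher and 25.5% lower). With scarce genes (mean log2 value under 0) left out, a larger share was called, 3740 higher and 4039 lower among 12247 genes. No gene of this list was that scarce. Those that rose included Slc9a3r1, the scaffold NHERF1 that binds the receptor tail (1.59-fold), and Pik3r2, a regulatory subunit of PI3-kinase (1.43-fold). Those that fell included the adaptor Nck2 (1.65-fold lower, -0.72 ± 0.06) and the small GTPase Hras (1.50-fold lower). Every change in this list was smaller than those of Pdgfb and Pdgfd. With plain read totals 7 of the list, in place of 12, were lower.

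Phosphatases, ubiquitin ligases and other brakes on the receptors passed the test in 8 of 13 cases, 3 higher and 5 lower, with a median of -0.06. This share of 61.5% was not far from the 50.5% of all genes that passed (24.9% higher and 25.5% lower). Ptprj, a phosphatase that acts on the beta receptor, was 1.85-fold lower, at 5.00 log2 CPM in high glucose and 5.89 log2 CPM in control (-0.89 ± 0.04, limma adjusted p = 2.02e-10). The ubiquitin ligase Cblb was 1.24-fold lower (-0.31, and -0.19 with plain read totals) and the phosphatase Acp1 1.48-fold lower. Lrig1, a membrane inhibitor of receptor kinases, rose 1.30-fold, Ptpn11, the phosphatase SHP2 that relays the receptor signal as well as limiting it, rose 1.18-fold, and the caveolar protein Cav1 rose 1.13-fold (0.17, and 0.29 with plain read totals). The count with plain read totals was 5 higher and 3 lower.

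Genes that PDGF is known to induce within hours in fibroblasts went both ways. Of the 12 that were measured, 5 were higher and 5 lower at the threshold, and their median log2 change was 0.0029. Among all genes 24.9% were higher and 25.5% lower. Ccl2, a chemokine first found as a PDGF-induced gene, rose 4.02-fold, with 4.75 log2 CPM in high glucose and 2.74 log2 CPM in control (2.01 ± 0.06, limma adjusted p = 1.92e-11). The transcription factor Fosb rose 1.48-fold and Has2, a hyaluronan synthase, 1.37-fold. Myc was 1.95-fold lower, Ptgs2, the prostaglandin synthase COX-2, 1.87-fold lower, and Odc1, an enzyme of polyamine synthesis, 1.39-fold lower. The rest of those past the threshold are named to complete the counts. Fos and Jun rose only 1.05-fold each, and Srf and Cxcl1 were 1.27-fold and 2.07-fold lower. These genes answer to many signals besides PDGF. The number that rose was 3 after median centring, with a single variance prior or without control 2.

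**Figure D5:**
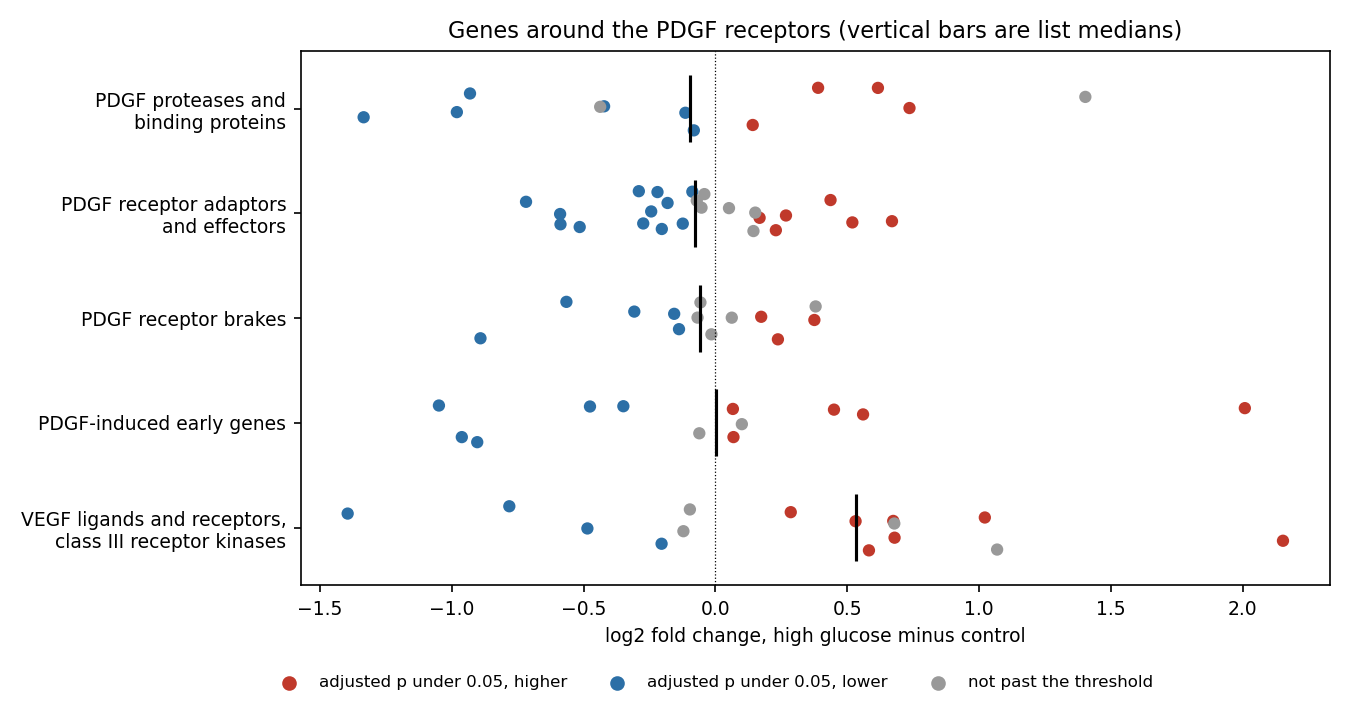
Log2 fold change (horizontal axis, high glucose minus control) of each measured gene of the 5 lists around PDGF, coloured by the limma call, with list medians as vertical bars. Each list holds genes on both sides of 0, and Ccl2 and Flt3 lie farthest to the right.

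The VEGF ligands and receptors, which share the cystine-knot fold of PDGFs or the kinase family of their receptors, were set beside them together with the other class III receptor kinases and their ligands. Of 15 measured, 7 rose, 4 fell and 4 did not pass, where 24.9% of all genes were higher and 25.5% lower. The median log2 fold change was 0.53. Every gene of the list with a mean log2 value under 0 lay above this median, namely Flt3, Kdr and Il34. Kdr (1.07, on 11 high-glucose and 5 control reads) and Il34 (0.68, on 94 and 53) did not pass. Without these scarce genes the median would be lower. Vegfa, the main growth factor of blood vessels, was 2.63-fold lower, at 5.60 log2 CPM in high glucose and 6.99 log2 CPM in control (-1.39 ± 0.03, limma adjusted p = 1.1e-12), close in size to Pdgfb. Vegfc, a factor for lymphatic vessels, was 1.72-fold lower, and the stem cell factor receptor Kit 1.15-fold lower (-0.20, and -0.090 with plain read totals, where it did not pass, adjusted p = 0.228). Pgf, placental growth factor, rose 1.60-fold, Csf1, the growth factor of macrophages, 1.50-fold, and Vegfd 2.03-fold (1.02 ± 0.14, limma adjusted p = 4.72e-05). The rise of Flt3 in the plot of these lists rests on 14 reads in high glucose and 2 in control, and it is named here because its point stands out. It did not pass without control 2, high glucose 2 or high glucose 3 (adjusted p = 0.0667, 0.0858 and 0.0563). In place of 4, 2 genes of this list were lower with plain read totals, 6 after median centring and 5 when scarce genes (mean log2 value under 0) were left out.

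Markers of the cells that carry or make PDGF genes moved in the same comparison, and in bulk RNA fewer cells of a type and less RNA per cell cannot be told apart. The marker counts that follow stand beside 24.9% of all genes higher and 25.5% lower. Of 11 fibroblast markers, 7 rose and 3 fell. The smallest p among the rises were those of Lum (4.45-fold higher) and Islr (14.1-fold higher). Among the falls they were those of Mfap5 (1.93-fold lower) and Col1a1 (1.33-fold lower). Quantile normalization put Col1a1 level with control. That method gives equal values to a gene of equal rank in every sample, so this does not test the fall of Col1a1. Clec3b, singled out after its values were seen, rose 11.3-fold on 359 high-glucose and 28 control reads. The summed level of the list was given above, and all 11 had reads in every sample. Of 12 mural markers, 7 fell and 3 rose, with a summed level of 7615 to 7673 CPM in high glucose and 14190 to 14310 CPM in control. Most of both sums came from the contractile genes Acta2 and Tagln. Acta2 had 2840 to 2899 CPM in high glucose and 6690 to 6792 CPM in control. Tagln had 3841 to 3886 CPM in high glucose and 5575 to 5679 CPM in control. The smooth muscle actin Acta2 was 2.35-fold lower and Cspg4, also on this list, 2.52-fold lower, while Notch3 and Abcc9 rose 1.70-fold and 1.76-fold. Rgs5, a defining pericyte marker, had 56 high-glucose and 129 control reads, and Higd1b was at 0 reads in part of the samples. Of 11 Schwann cell and satellite glia markers 10 fell and none rose, with a summed level of 522.8 to 563.7 CPM in high glucose and 926.5 to 962.6 CPM in control, among them Ncam1 (1.83-fold lower). The neuronal markers fell in 8 of 12 cases and rose in 1, Syt1 (1.84-fold higher), with Tubb3 and Stmn2 2.60-fold and 4.57-fold lower and Elavl4, Rbfox3 and Snap25 at 0 reads in part of the samples. Of 12 markers of endothelium, which makes PDGF-B in vessels, 9 were measured, summing to 63.2 to 64.7 CPM in high glucose and 78.3 to 82.4 CPM in control, with Ptprb the one past the test (8.26-fold lower). Of the endothelial sum, Flt1 alone gave 40.7 to 43.1 CPM in high glucose and 43.2 to 45.6 CPM in control. The defining marker Cdh5 had 12 high-glucose and 18 control reads, and Kdr and Tie1 were at 0 reads in part of the samples. The 12 macrophage markers summed to 29.2 to 31.3 CPM in high glucose and 23.3 to 25.0 CPM in control, with 3 higher, among them Cd14 and Csf1r (1.55-fold and 1.60-fold), and 3 lower, among them Adgre1 and C1qa (2.41-fold and 3.20-fold lower). The part of these markers' cell types in the PDGF changes was not tested.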

How the data were processed

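The authors deposited voom-normalized log2 CPM values, per the file names: log2 of the reads with 0.5 added, divided by a scaled library size. Per the submitters' processing notes, the tools were HISAT2 2.1.0, featureCounts 1.6.0 and fastp 0.19.4, with build Rnor_6.0. Annotation and strand are not given in the sources used here. Reads were worked back from the values, of which 100% lay within 0.01 of a whole number. Scaling factors were 1.03 to 1.05 in high glucose and 0.959 to 0.964 in control.

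Groups came from sample titles, with DM taken as high glucose. All 16551 genes were fitted in limma 3.58.1 (R 4.3.3) with group as the term and a mean-variance trend, two-sided, with Benjamini-Hochberg adjustment, a threshold of 0.05 and no filter. The fit was tested on simulated data. Each sample was counted as 1 replicate. Samples of a group differed beyond counting error (mean chi-square per gene 3.01 to 4.8), which cannot tell separate cultures from separate libraries of 1 culture. Alternatives covered scaling, offset, filter, weights, variance prior, replicate block and left-out samples. Genes named are all members, up to 3 called genes per direction of each pathway list, up to 2 of each marker list and 2 nearest profiles per member, with exceptions said in the text; 3 genes under this rule are not reported here. Members and lists were chosen with earlier results of these data known. The lncRNA table was not used. Figures used matplotlib 3.10.9.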

Additional observations from a re-analysis of the deposited data

How the results depend on the processing

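Pdgfra, Pdgfrl and Pdgfc stayed higher and Pdgfa, Pdgfb and Pdgfd lower, past the threshold, under all 14 alternatives, with log2 fold changes of 0.86 to 0.995, 0.55 to 0.69, 0.63 to 0.80, -0.61 to -0.48, -1.36 to -1.23 and -1.20 to -0.999. The 4 within-sample differences kept their direction under all 9 of theirs, with Pdgfra minus Pdgfrb at 0.74 after quantile normalization (added after seeing the data). Pdgfrb turned to the higher side with plain read totals (0.090) and after quantile normalization (0.19). Plain read totals shifted the median log2 fold change of all genes to 0.13, against 0.01, and called 5932 genes higher and 2847 lower, against 4126 and 4228. Under them 7 receptor effectors were lower, 5 brakes higher and 3 lower, and 2 genes of the VEGF list lower (6 after median centring); the authors' scaling factors are what these totals leave out. Among PDGF-induced early genes 3 were higher after median centring and with a single variance prior, and 3 to 5 when 1 sample was left out; the cause was not tested. Same-numbered samples did not deviate together (r = -0.092, -0.043 and 0.026), against r of -0.071 to 0.116 for samples of different numbers. No pairing by number was seen, but 3 samples per group cannot exclude it. A replicate block gave 3968 genes higher and 4084 lower and changed no call of a PDGF gene. Genes with few reads, such as Flt3 and Plau, had wide standard errors (0.707 and 0.246).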
